A study of Mus musculus with 2 samples.

Results

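The Mir181 family of the mouse is encoded by 6 microRNA genes at 3 loci, Mir181a-1 with Mir181b-1, Mir181a-2 with Mir181b-2, and Mir181c with Mir181d. The 6 genes were chosen by name, and by locus, from the 2202 microRNA genes in the count tables. Their levels were described in mouse gastrocnemius, a calf muscle of mixed fibre type, by microRNA-seq of inserts under 30 nt. The labels named a single group of 2 libraries, called biological replicates 2 and 1, and made from adult male B6CASTF1/J mice aged 18 to 20 months, the first-generation offspring of C57BL/6J and CAST/EiJ parents. No treatment, allele or second age was named. The microRNA genes together had 2156222 assigned reads in replicate 2 and 4442692 in replicate 1, which was 2.06-fold deeper. The labels gave the libraries separate biosamples and the same donor identifier, so differences between the libraries may be technical. The p-values set these differences against counting error alone and do not measure a spread between animals.

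A microRNA gene is transcribed as a longer primary transcript, in which a hairpin is cut out and then trimmed to a short duplex. Either strand of the duplex, the 5p arm or the 3p arm of the hairpin, can be loaded into an Argonaute protein, and its seed, bases 2 to 8, pairs with target messenger RNAs. The miR-181 family is best known from lymphocytes, where miR-181a tunes the sensitivity of the T cell receptor. It has also been studied in vascular endothelium, in brain and in differentiating muscle cells, where it was described to repress the homeobox gene Hoxa11.

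The mature sequences are shown because they decide which reads can be placed at a single locus. All 6 genes had RefSeq entries on GRCm38.p6, which gave 4 different 5p sequences. These are written 5′ to 3′ with the seed in capitals. Mir181a-1 and Mir181a-2 make the first, Mir181b-1 and Mir181b-2 the second, Mir181c the third and Mir181d the last.
miR-181a-5p: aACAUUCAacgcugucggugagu
miR-181b-5p: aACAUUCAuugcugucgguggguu
miR-181c-5p: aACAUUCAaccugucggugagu
miR-181d-5p: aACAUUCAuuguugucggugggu

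The seed ACAUUCA was common to all 6 genes and was found in no other mature sequence of the RefSeq table. Outside the seed the 5p sequences fell into 2 pairs. miR-181a-5p and miR-181c-5p were 1 edit apart (a substituted, inserted or deleted base), and miR-181b-5p and miR-181d-5p were 2 edits apart. Between the pairs 4 or 5 edits were needed. The change from miR-181b-5p to miR-181d-5p was C12U, counted from 1 at the 5′ end, and a difference of 1 base in length. Each of the 3 loci thus holds 1 gene of either pair.

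The 3p arms differed between all 6 genes and are shown, again with bases 2 to 8 in capitals, because they are the arms by which the paired loci can be told apart.
miR-181a-1-3p: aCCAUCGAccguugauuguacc
miR-181a-2-3p: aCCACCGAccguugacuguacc
miR-181b-1-3p: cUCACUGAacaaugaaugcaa
miR-181b-2-3p: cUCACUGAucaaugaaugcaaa
miR-181c-3p: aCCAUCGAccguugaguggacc
miR-181d-3p: cCCACCGGgggaugaauguca

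From miR-181a-1-3p to miR-181a-2-3p the changes were U5C and U16C, and from miR-181b-1-3p to miR-181b-2-3p the change was A9U beside 1 base of length. miR-181a-1-3p and miR-181c-3p share their seed and differ by U16G and U19G. Each 3p sequence was found whole in 1 of the 2202 precursors of GENCODE M21. By contrast miR-181a-5p and miR-181b-5p were each found in 2 precursors, and miR-181c-5p and miR-181d-5p in 1 each.

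The hairpins of the paired loci show how far this identity reaches. Capitals mark the longest stretch that the 2 hairpins of a pair share.
Mir181a-1: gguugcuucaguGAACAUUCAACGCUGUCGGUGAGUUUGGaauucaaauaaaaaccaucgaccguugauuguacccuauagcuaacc
Mir181a-2: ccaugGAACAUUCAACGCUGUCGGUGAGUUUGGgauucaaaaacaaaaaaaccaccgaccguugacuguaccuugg
Mir181b-1: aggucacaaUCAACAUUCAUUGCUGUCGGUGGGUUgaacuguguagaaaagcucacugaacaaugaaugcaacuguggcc
Mir181b-2: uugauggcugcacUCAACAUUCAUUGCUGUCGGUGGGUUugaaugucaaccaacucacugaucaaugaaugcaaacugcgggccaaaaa

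The a pair shares 28 bases, which run 1 base before and 4 bases beyond miR-181a-5p. The b pair shares 26 bases, which begin 2 bases before miR-181b-5p and end at its last base. A read of miR-181a-5p or miR-181b-5p as annotated therefore matches both loci of its pair, while a read of miR-181b-5p with 1 more genomic base at its 3′ end matches only 1. Of all windows of 20 bases, 9 of 68 in Mir181a-1, 9 of 57 in Mir181a-2, 7 of 61 in Mir181b-1 and 7 of 70 in Mir181b-2 occurred in the other locus. No window of Mir181c or Mir181d occurred in another of the 2202 genes. Multimapping reads, 70.2% of all reads in replicate 2 and 73.8% in replicate 1, stand in the tables apart from the genes. Counts of the a and b genes may thus leave out an unknown number of reads of the main mature forms, and the tables do not divide a gene's count by arm.

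The 3 loci lie on different chromosomes of mm10 in the GENCODE M21 annotation. Mir181a-1 (ENSMUSG00000065565.1) and Mir181b-1 (ENSMUSG00000065458.1) lie on chromosome 1, plus strand, from 137966455 to 137966541 and from 137966639 to 137966718. Both sit in an intron of the noncoding gene Gm4258 and overlap an exon of the lincRNA A430106G13Rik on the same strand, and an intron of the lincRNA Gm26936 on the other strand. The nearest protein-coding gene, 96143 bases away, is Ptprc, which encodes the leukocyte common antigen. Mir181a-2 (ENSMUSG00000065423.1) and Mir181b-2 (ENSMUSG00000065578.1) lie on chromosome 2, plus strand, from 38852735 to 38852810 and from 38853830 to 38853918. They lie opposite to an intron of Nr6a1, a nuclear receptor gene on the minus strand, and Mir181b-2 also lies opposite to an exon of the gene model Gm44144. Mir181c (ENSMUSG00000065483.2), from 84178873 to 84178961, and Mir181d (ENSMUSG00000076338.1), from 84178716 to 84178787, lie on the minus strand of chromosome 8 in an intron of the germ cell gene Nanos3 on the same strand. The gaps between the genes of a locus are 97 bases for a-1/b-1, 1019 bases for a-2/b-2 and 85 bases for c/d. The column read as the opposite strand held no counts of the 6 genes, and the column read as without strand gave the same numbers as the one used.

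The 6 genes together held 2317 counts in replicate 2 and 5920 counts in replicate 1. That was 0.107% of assigned counts (Wilson 95% interval 0.103 to 0.112) in replicate 2, against 0.133% (0.130 to 0.137) in replicate 1, or 1204 ± 182 CPM (counts per 1000000 assigned counts, SD, n = 2). Per 1000000 reads of any kind in the tables, unassigned ones included, the family held 213 counts in replicate 2 and 209 in replicate 1. The libraries were thus further apart per assigned read than per read of any kind. Intervals cover counting error only and take reads as independent molecules, which PCR-amplified reads are not, so the intervals may be too narrow.

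The a-2/b-2 locus on chromosome 2 held most of the family's counts in both libraries. It held 79.2% of them (Wilson 95% interval 77.5 to 80.8) in replicate 2, against 85.8% (84.8 to 86.6) in replicate 1, at 997 ± 207 CPM (SD, n = 2). The c/d locus followed at 18.2% (16.7 to 19.8) in replicate 2, against 10.6% (9.87 to 11.4) in replicate 1, at 169 ± 38.3 CPM. The a-1/b-1 locus held 2.63% (2.06 to 3.37) in replicate 2, against 3.61% (3.17 to 4.12) in replicate 1, at 38.2 ± 14.1 CPM. The order of the loci was the same in both libraries, and a-2/b-2 stood 4.35-fold above c/d in replicate 2 and 8.07-fold above it in replicate 1. Against a-1/b-1 it stood 30.1-fold higher in replicate 2 and 23.7-fold higher in replicate 1. Because c/d has no copy in another microRNA gene and the a and b genes do, these ratios hold for placed reads only.

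**Figure D1:**
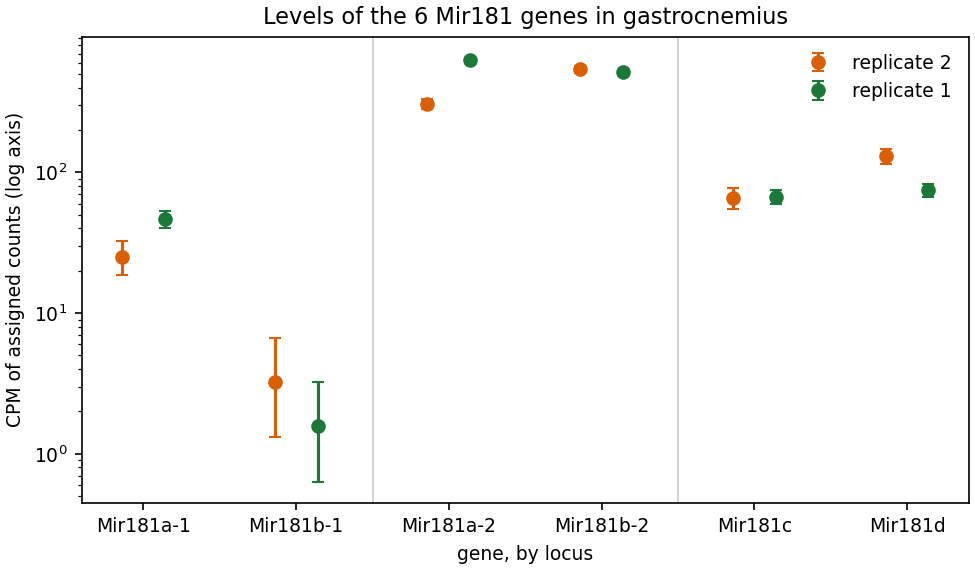
CPM of assigned counts (log axis) for the 6 Mir181 genes, with replicate 2 in orange and replicate 1 in green and bars for exact Poisson 95% intervals of the counts. Mir181b-2 and Mir181a-2 lie at 307 CPM or more in both libraries while Mir181b-1 lies at 3.25 CPM or less.

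At the main locus, Mir181b-2 had 1172 counts, or 544 CPM, in replicate 2 and 2285 counts, or 514 CPM, in replicate 1. Its levels in the libraries were close, at 529 ± 20.7 CPM (SD, n = 2), which placed it 71st among the 2202 genes by mean. Mir181a-2, its partner 1019 bases upstream, had 662 counts, or 307 CPM, in replicate 2 and 2792 counts, or 628 CPM, in replicate 1. At 468 ± 227 CPM it was 76th, and its level in replicate 1 was above that of Mir181b-2 while its level in replicate 2 was below. The order of these partners therefore changed between the libraries, and their means did not differ beyond the spread.

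At the c/d locus, Mir181d had 281 counts, or 130.3 CPM, in replicate 2 and 332 counts, or 74.7 CPM, in replicate 1 (103 ± 39.3 CPM). Mir181c had 141 counts, or 65.4 CPM, in replicate 2 and 297 counts, or 66.9 CPM, in replicate 1 (66.1 ± 1.03 CPM). Mir181d was the higher partner in both libraries. The Poisson 95% intervals of the pair were apart in replicate 2, at 116 to 146 CPM for Mir181d and 55.0 to 77.1 CPM for Mir181c, and overlapped in replicate 1, at 66.9 to 83.2 CPM and 59.5 to 74.9 CPM.

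At the a-1/b-1 locus, Mir181a-1 had 54 counts, or 25.0 CPM, in replicate 2 and 207 counts, or 46.6 CPM, in replicate 1 (35.8 ± 15.2 CPM). It lay below Mir181c in both libraries, with intervals (18.8 to 32.7 CPM in replicate 2, and 40.5 to 53.4 CPM in replicate 1) that did not reach those of Mir181c. Mir181b-1 was the lowest member, with 7 counts in each library, which is 3.25 CPM in replicate 2 against 1.58 CPM in replicate 1. With these depths, a count of 0 would allow up to 1.39 CPM in replicate 2 and 0.675 CPM in replicate 1, so Mir181b-1 stood little above the limit of detection. Dividing CPM by the length of the precursor, 72 to 89 bases, left the order of the 6 genes within each library as it was. On that scale the mean of Mir181a-2 was above that of Mir181b-2, at 615 against 594 CPM per 100 bases.

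The paired loci of an identical 5p sequence thus had very unequal counts. Mir181b-2 had 167-fold the counts of Mir181b-1 in replicate 2 and 326-fold in replicate 1, and 219-fold by mean CPM. Mir181a-2 had 12.3-fold the counts of Mir181a-1 in replicate 2 and 13.5-fold in replicate 1, and 13.1-fold by mean CPM. Among the RefSeq entries, 23 other sets of 2 genes share a mature sequence and have 10 or more counts. In 21 of them both genes were counted, with a median ratio of the higher over the lower gene of 4.75 by mean CPM. A ratio at or above that of the Mir181b genes, or a gene at 0 counts, was found in 3 of the 23 sets, and one at or above that of the Mir181a genes, or a gene at 0 counts, in 8. These are descriptions of placed reads, and how the multimapping reads would divide between the loci was not tested.

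Within each locus the partners come from neighbouring hairpins, and their proportion does not depend on how the libraries are scaled. In all 3 loci the first-named gene, which is the one with the a-type or c-type 5p sequence, held a smaller share of its locus in replicate 2 than in replicate 1. Mir181a-2 held 36.1% of the a-2/b-2 counts (exact Clopper-Pearson 95% interval 33.9 to 38.3) in replicate 2, against 55.0% (53.6 to 56.4) in replicate 1. Mir181c held 33.4% of the c/d counts (28.9 to 38.1) in replicate 2, against 47.2% (43.3 to 51.2) in replicate 1. Mir181a-1 held 88.5% of the a-1/b-1 counts (77.8 to 95.3) in replicate 2, against 96.7% (93.4 to 98.7) in replicate 1. The intervals were apart for a-2/b-2 and c/d and overlapped for a-1/b-1, which rests on 7 counts of Mir181b-1 in each library.

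**Figure D2:**
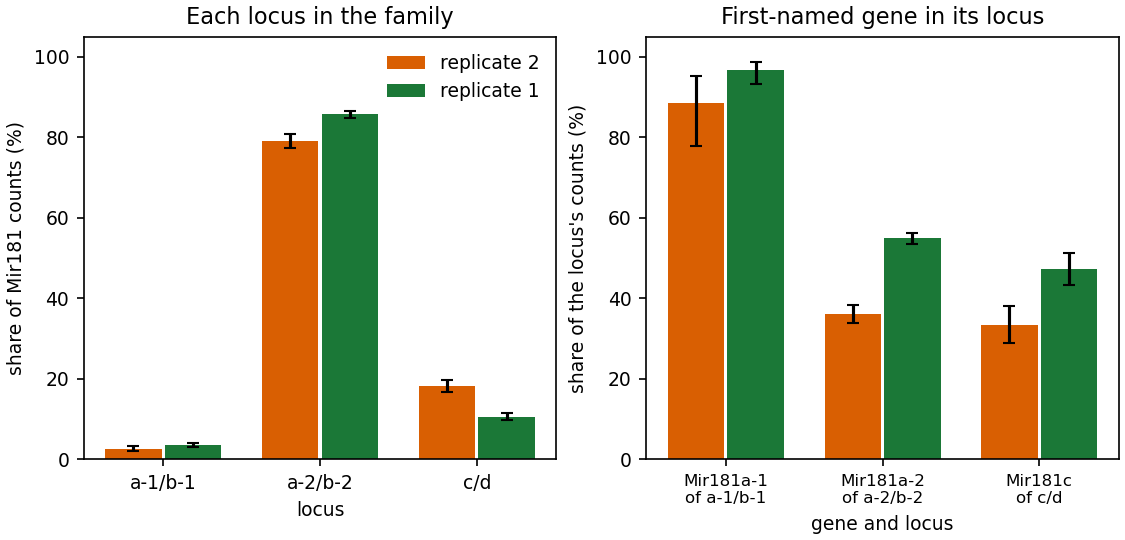
Left, share of the family's counts at each locus, and right, share of each locus's counts held by its first-named gene, in percent, with replicate 2 in orange, replicate 1 in green and bars for 95% intervals of the counts (Wilson left, Clopper-Pearson right). The a-2/b-2 locus holds 79.2% of the family in replicate 2 against 85.8% in replicate 1, and all 3 first-named genes hold less of their locus in replicate 2.

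As a ratio, Mir181a-2 over Mir181b-2 was 0.565 in replicate 2 and 1.22 in replicate 1, so that the ratio in replicate 2 was 0.462 times that in replicate 1 (95% conditional exact interval 0.413 to 0.517). Mir181c over Mir181d was 0.502 in replicate 2 and 0.895 in replicate 1, a factor of 0.561 (0.430 to 0.730). Mir181a-1 over Mir181b-1 was 7.71 in replicate 2 and 29.6 in replicate 1, a factor of 0.261 (0.0750 to 0.918). The direction was shared by the 3 loci and was noticed in these data, with no other libraries to set it against.

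Shifts of this size between neighbours were common in these libraries. The tables hold 99 other pairs of adjacent microRNA genes on the same strand, within 10 kb of each other and with 10 or more counts each, made of 141 genes. The median shift of the log2 ratio within such a pair, taken without sign and with 0.5 counts added, was 0.78, with quartiles of 0.46 and 1.39. The other pairs were not matched in depth to the Mir181 pairs. Counting error widens the shifts of pairs with few counts, so they are a loose yardstick for a-2/b-2 and c/d. On that scale the shift was 1.93 for a-1/b-1, 1.11 for a-2/b-2 and 0.83 for c/d. A shift at least as large was found in 15, 35 and 47 of the 99 other pairs in that order of loci, so the Mir181 pairs lay within the range of other pairs. These pairs are not separate clusters. Many are successive neighbours on chromosome 12, where a gene can enter 2 pairs. They include the largest shifts, such as 5.46 for Mir770 and Mir673 and 4.02 for Mir487b and Mir539. Large shifts were also found elsewhere, such as 3.55 for Mir206 and Mir133b on chromosome 1.

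**Figure D3:**
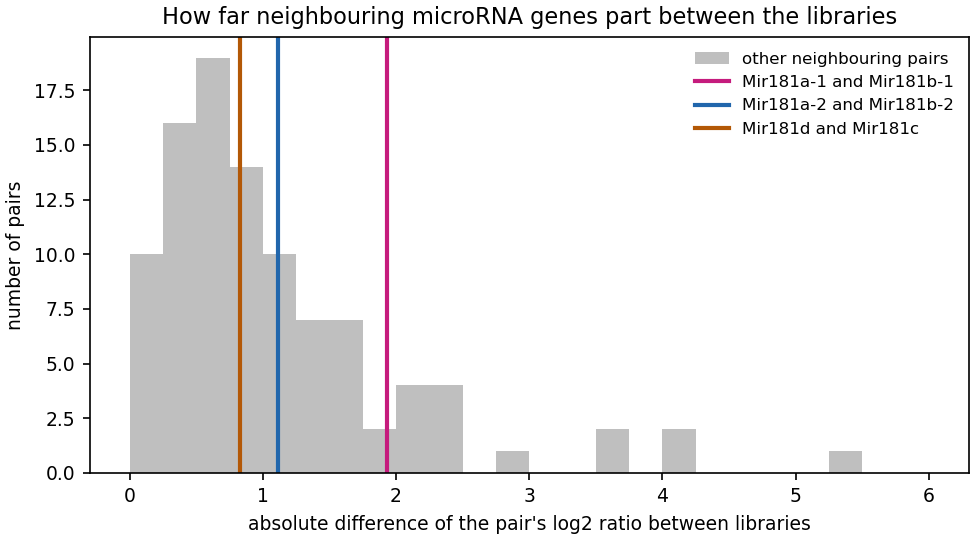
Histogram of the shift of the log2 ratio within pairs of neighbouring microRNA genes between the libraries (x axis, absolute log2 difference, in bins of 0.25) for 99 other pairs in grey, with the 3 Mir181 pairs as coloured lines. The Mir181 lines, at 0.83, 1.11 and 1.93, lie inside the grey distribution.

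Replicate 2 was also set against replicate 1 gene by gene, which asks how far a level varied between samples that carry the same labels. Of the 6 Mir181 genes, all with 10 or more counts over the libraries, 2 were higher in replicate 2, 2 were lower and 2 did not pass a threshold of 0.05 on the adjusted p (two-sided exact binomial test on counts, Benjamini-Hochberg over 380 genes). Over all genes tested 61.8% passed, 30.3% higher and 31.6% lower in replicate 2, so the family's count of 4 in 6 was near the background. The test knows counting error alone, and it sets library against library, not condition against condition. The median log2 ratio of replicate 2 over replicate 1, on CPM + 1 with TMM scaling, was 0.12 for the 6 genes and 0.020 for all 380, whose quartiles were −0.72 and 0.57.

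Both a genes were lower in replicate 2. Mir181a-2, whose level was 307 CPM in replicate 2 against 628 CPM in replicate 1, had a log2 ratio of −0.94 (95% counting interval −1.06 to −0.82, adjusted p = 3.88e-57, exact binomial test), a 1.92-fold difference. Mir181a-1, with 25.0 CPM in replicate 2 against 46.6 CPM in replicate 1, had a log2 ratio of −0.78 (−1.26 to −0.36, adjusted p = 0.000397, exact binomial test). These genes lie at different loci, and the interval of Mir181a-1 holds the ratio of Mir181a-2. They make the same 5p sequence, whose reads as annotated match both loci, and their counts are not divided by arm. Their direction and that of Mir181d were the same under every scaling, filter and pseudocount tried.

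Mir181d had a log2 ratio of 0.89 (0.66 to 1.13, adjusted p = 1.95e-13, exact binomial test). Mir181b-2 had a log2 ratio of 0.17 (0.070 to 0.28, adjusted p = 0.00199, exact binomial test), a 1.13-fold difference that lost its call with plain totals (0.080, adjusted p = 0.183, exact binomial test) and with no filter on low counts (0.027, adjusted p = 0.836, exact binomial test). Mir181c, at 0.060 (−0.24 to 0.36, adjusted p = 0.758, exact binomial test), and Mir181b-1, at 0.79 (−0.60 to 2.88, adjusted p = 0.209, exact binomial test), did not pass. The interval of Mir181b-1 allows a difference in either direction, since the gene had 14 counts in all. All these counting intervals are of the scaled count ratio, without the 1 CPM added to the printed log2 ratios. For Mir181b-1 this matters, as its log2 ratio was 1.09 with 0.1 CPM added in place of 1 CPM.

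**Figure D4:**
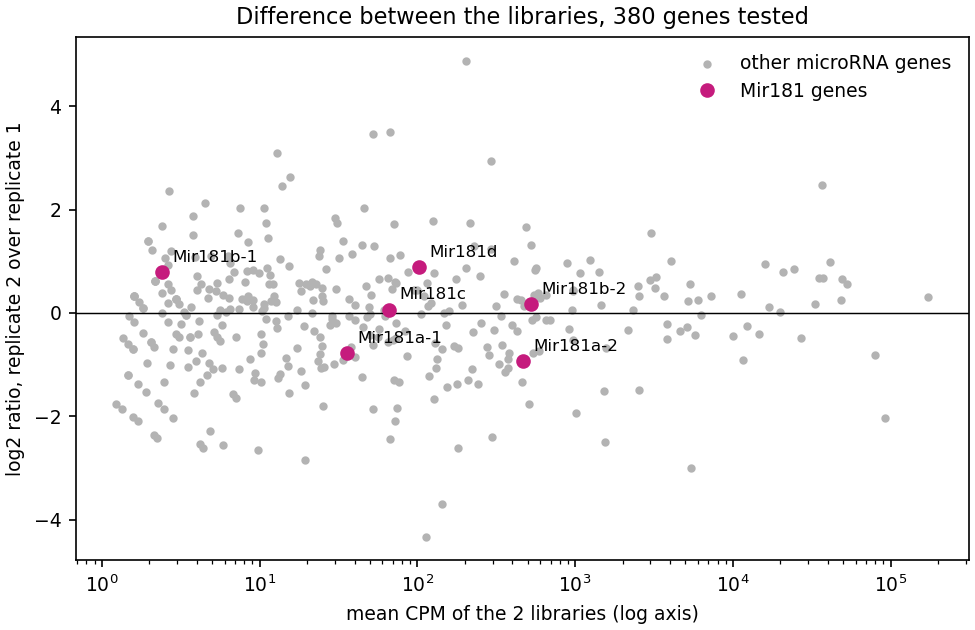
Log2 ratio of replicate 2 over replicate 1 (y axis) against the mean CPM of the libraries (x axis, log scale) for the 380 microRNA genes tested, with the 6 Mir181 genes in magenta and the others in grey. The Mir181 genes lie between −0.94 and 0.89, inside the cloud of other genes.

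The ratios of all 6 genes lay within the common spread between these libraries. The SD of log2 ratios over the 228 genes with 100 or more counts was 1.13. A ratio at least as far from 0 as that of Mir181a-2, the furthest, was found in 34.5% of the 380 genes. For Mir181d the share was 37.1%, for Mir181a-1 43.4% and for Mir181c 94.5%.

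The counts of a family with a large role in lymphocytes were read beside markers of blood, vessel and nerve cells, as a measurement of what these pieces of muscle held. The muscle-enriched list took 6.57% of assigned counts in replicate 2 and 1.64% in replicate 1, and Mir206 and Mir486 held most of it. By mean they lay at 36675 and 3829 CPM, followed by Mir499 at 295 CPM. The paired loci Mir1a-1, Mir1a-2, Mir133a-1 and Mir133a-2 lay at only 3.07 to 132 CPM by mean. Mir133b, Mir208a and Mir208b lay at 25.8, 12.8 and 70.8 CPM. The genes of this list did not move together, with 4 of 10 called higher and 4 lower in replicate 2. Over all 380 genes tested, 30.3% were called higher and 31.6% lower by the same test of counting error alone. Most of the list's difference in share was Mir206, at 61540 CPM in replicate 2 against 11810 CPM in replicate 1. Of the leukocyte list, 4 of 6 names were in the tables, led by Mir150 and Mir155. Those 4 genes took 0.363% in replicate 2 and 0.229% in replicate 1, with 2 higher and 2 lower in replicate 2. Names were matched exactly, so Mir146 was not counted for the listed Mir146a. Mir146 had 485 CPM in replicate 2 and 470 CPM in replicate 1, which these shares leave out. The endothelial gene Mir126a took 5.54% in replicate 2 and 10.4% in replicate 1, and its neighbour Mir126b had no counts. The erythroid genes Mir451a and Mir144 took 0.0109% in replicate 2 and 0.0777% in replicate 1, both lower in replicate 2. The neural list, led by Mir338 and Mir137, took 0.0386% in replicate 2 and 0.0330% in replicate 1. Of its 10 genes 5 had no counts, and of the 4 tested 2 were higher and 1 lower in replicate 2. Their part in the differences of the Mir181 genes was not tested, and in whole tissue fewer cells of a type and less RNA per cell cannot be told apart.

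The genes most like the leading member of each locus were sought by the distance between log2(CPM + 1) values over the 2 libraries, a measure that rests on 2 points per gene. Nearest to Mir181b-2 were Mir34a, at 598 CPM in replicate 2 and 500.1 CPM in replicate 1, and Mir146, with 485 CPM in replicate 2 against 470.0 CPM in replicate 1, with distances of 0.14 and 0.21. Nearest to Mir181d were Mir330 and Mir700, at distances of 0.30 and 0.31. Nearest to Mir181a-1 were Mir1930 and Mir3068, at 0.15 and 0.17.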

How the data were processed

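Each library has 1 deposited table of raw read counts for microRNA genes, made on mm10 with GENCODE M21 according to its readme. No aligner, trimming step or counter is named (not given in the sources used here). The 3 count columns carry no names and were read from their values as unstranded, sense and antisense counts, and the column read as sense was used. Reads of no gene stayed out of library sizes. All 2202 identifiers matched GENCODE M21.

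CPM were computed over assigned counts. The difference between libraries used edgeR's TMM scaling, log2 ratios of CPM + 1 and an exact two-sided binomial test on 380 genes with 10 or more counts, adjusted by Benjamini-Hochberg at a threshold of 0.05. TMM moved log2 ratios by 0.093 against plain totals. Counting intervals of the ratios were taken from the TMM-scaled counts with nothing added. edgeR's quasi-likelihood test needs replicates within each side, which 1 library against 1 does not give. The test was checked on counts simulated with counting error alone, so that check does not cover the wider spread between these libraries. Chi-square per degree of freedom between the libraries was 1359, so they are not a single library deposited again. Alternatives were the counts without strand, other denominators, precursor length, DESeq2's size factors, plain totals, other filters and pseudocounts, replicate 1 thinned to the depth of replicate 2, and each library left out.

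Sequences come from RefSeq on GRCm38.p6, where 1032 of 1072 symbols matched a counted gene. The 20-base windows were compared over the GENCODE M21 precursors. The members, the lists and the rule for named genes (the 6 members, the 2 genes nearest to the leading member of each locus, overlapping or nearest coding genes and up to 2 leading genes of each marker list) were chosen with earlier results of these data known. Versions were edgeR 4.0.16 and DESeq2 1.42.0 in R 4.3.3, and scipy 1.17.1, pandas 2.3.3, matplotlib 3.10.9 and numpy 2.4.6 in Python 3.11.15.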

Additional observations from a re-analysis of the deposited data

How the results depend on the processing

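The family's summed level of 1204 CPM became 1673 CPM (0.167% of counts) with the counts without strand, 1453 CPM (0.145%) without the most abundant gene, 211 per 1000000 reads (0.0211%) with all reads as denominator and 1471 CPM per 100 bases of precursor. Apart from the scale per 100 bases, which divides each gene's count by its precursor length, only the denominators changed. The counts of the 6 genes were the same with and without strand, so locus and partner shares were the same too. Each library alone gave 1075 to 1333 CPM. Of 380 genes tested, 235 passed, and 211 to 237 passed under the alternatives. Of 47 log2 ratios of members under alternatives, 43 kept their direction and side of the threshold. Mir181b-2 lost its call with plain totals (0.080) and with no filter (0.027), and Mir181c, which had not passed, changed sign there, at −0.031 and −0.084. The thinned library gave Mir181c 0.24, not passing. No paired analysis was possible because the labels give a single group. Depth limits Mir181b-1, with 14 counts in all, and arms and multimapping reads are not resolved in the tables.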
